A study of Ovis aries with 91 samples.

Results

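The 2 genes described here, ENSOARG00000017646 and ENSOARG00000017779, were taken from the 13803 sheep genes listed in any of 3 deposited expression tables, and both are listed in every table. They were chosen by measured values, namely their increase in cardiomyocytes of the left atrial appendage. Among genes with an adjusted p under 0.05, a mean level above the table's median and no overlap between groups, they had the largest and the next largest increase, both in transition against control sheep and in chronic against control sheep. The third gene of the same ranking, just outside the choice, rose by 2.27 on the log2 scale in transition sheep and by 2.79 in chronic sheep. The files give both genes as Ensembl identifiers with no symbol, and 0 of the 13803 identifiers matched the gene table used here, so no name, function, position or sequence is given for them. Fixed markers of cell types could not be read for the same reason, and the labelled tissues and cells were not checked against markers.

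RNA was sequenced from the atria of control, transition and chronic sheep, where atrial fibrillation was brought on by a device that paced the right atrium at a fast rate. The condition field of the labels calls sheep C1 a control and the other control sheep sham, but titles and column names differ from it: several call C1 sham, and those of G21, G32 and G36 read control. The states carry no time or age in the labels. Isolated cardiomyocytes came from both appendages of 3 control sheep (C1, S3 and S4), 3 transition sheep (D23, D24 and D27) and 3 chronic sheep (D16, D19 and D20). Whole tissue of both appendages came from the same 3 control sheep, from transition sheep D24, D27 and D30, and from chronic sheep D15, D16 and D19, so that 7 sheep gave both materials. The posterior left atrium was sampled as whole tissue in 6 transition sheep (G5, G13, G34, G26, D24 and D27) and 6 control sheep (G21, G32, G36, S3, S4 and C1). Posterior left atrium columns are assigned to sheep by the sheep field of the labels, although the columns and titles of S3, S4 and C1 read S1_PLA, S2_PLA and S3_PLA and those of D24 and D27 read T1_PLA and T2_PLA, so the match of these 5 to appendage sheep rests on that field. Sheep with G numbers, 4 transition and 3 control, gave no appendage samples, and those 4 transition sheep carry the word saline in their titles. Cardiomyocyte libraries held 5305524 to 12434418 listed reads and appendage tissue libraries 6241967 to 22382458, and for the posterior left atrium the depth is unknown. All values are log2 CPM as deposited, so a step of 1 is a doubling, and the tables were normalised separately.

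Atrial fibrillation is a fast, disordered rhythm of the atria that tends to become more stable the longer it lasts. Sustained rapid beating remodels the atrial muscle, with altered ion channels and calcium handling, changed contractile and metabolic gene expression, and fibrosis between the muscle cells. Cardiomyocytes are the contracting cells of this tissue. Whole tissue also holds fibroblasts, vessel cells, nerves, fat and immune cells, and the posterior left atrium, where the pulmonary veins enter, is known as a frequent source of the arrhythmia. In bulk samples such as these, fewer cells of a type and less RNA per cell cannot be told apart.

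In left cardiomyocytes both genes stood lowest in control sheep, higher in transition sheep and highest in chronic sheep, with no overlap between any of the 3 states. These libraries chose the genes, so their values are given as a description. ENSOARG00000017779 had log2 values of 9.37 in C1, 8.22 in S3 and 7.42 in S4 among control sheep, 10.98 in D23, 10.22 in D24 and 10.74 in D27 among transition sheep, and 11.38 in D16, 11.10 in D19 and 11.72 in D20 among chronic sheep. Its means were 8.34 ± 0.98 in control, 10.65 ± 0.38 in transition and 11.40 ± 0.31 in chronic sheep (SD, n = 3 each). ENSOARG00000017646 had values of 3.53 in C1, 2.17 in S3 and 1.03 in S4, then 5.04 in D23, 4.30 in D24 and 5.12 in D27, then 5.57 in D16, 5.24 in D19 and 5.92 in D20. The control sheep kept the order C1, S3, S4 from high to low for both genes, and they were spread more widely than the other sheep.

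The change of ENSOARG00000017646 in left cardiomyocytes was 2.57 ± 0.45 (SE) in transition against control sheep, a 5.96-fold difference, and 3.33 ± 0.45 in chronic against control sheep, a 10.1-fold difference. For ENSOARG00000017779 the changes were 2.31 ± 0.44, or 4.96-fold, and 3.06 ± 0.44, or 8.35-fold. Over the 12279 genes of the cardiomyocyte table that passed a filter on the mean level, 1.86% were called higher in transition sheep and 3.84% in chronic sheep, and nothing is read from the 2 genes' share because these contrasts chose them. Likewise every transition sheep was above every control sheep for 12.8% of genes, every chronic sheep above every control sheep for 16.6% and every chronic sheep above every transition sheep for 5.84%. The lowest transition sheep lay 0.77 above the highest control sheep for ENSOARG00000017646 and 0.85 above it for ENSOARG00000017779. Between chronic and transition sheep the gaps were 0.12 and 0.13, against differences of the means of 0.76 ± 0.45 and 0.75 ± 0.44 (SE), so that this last step rests on a narrow separation.

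**Figure D1:**
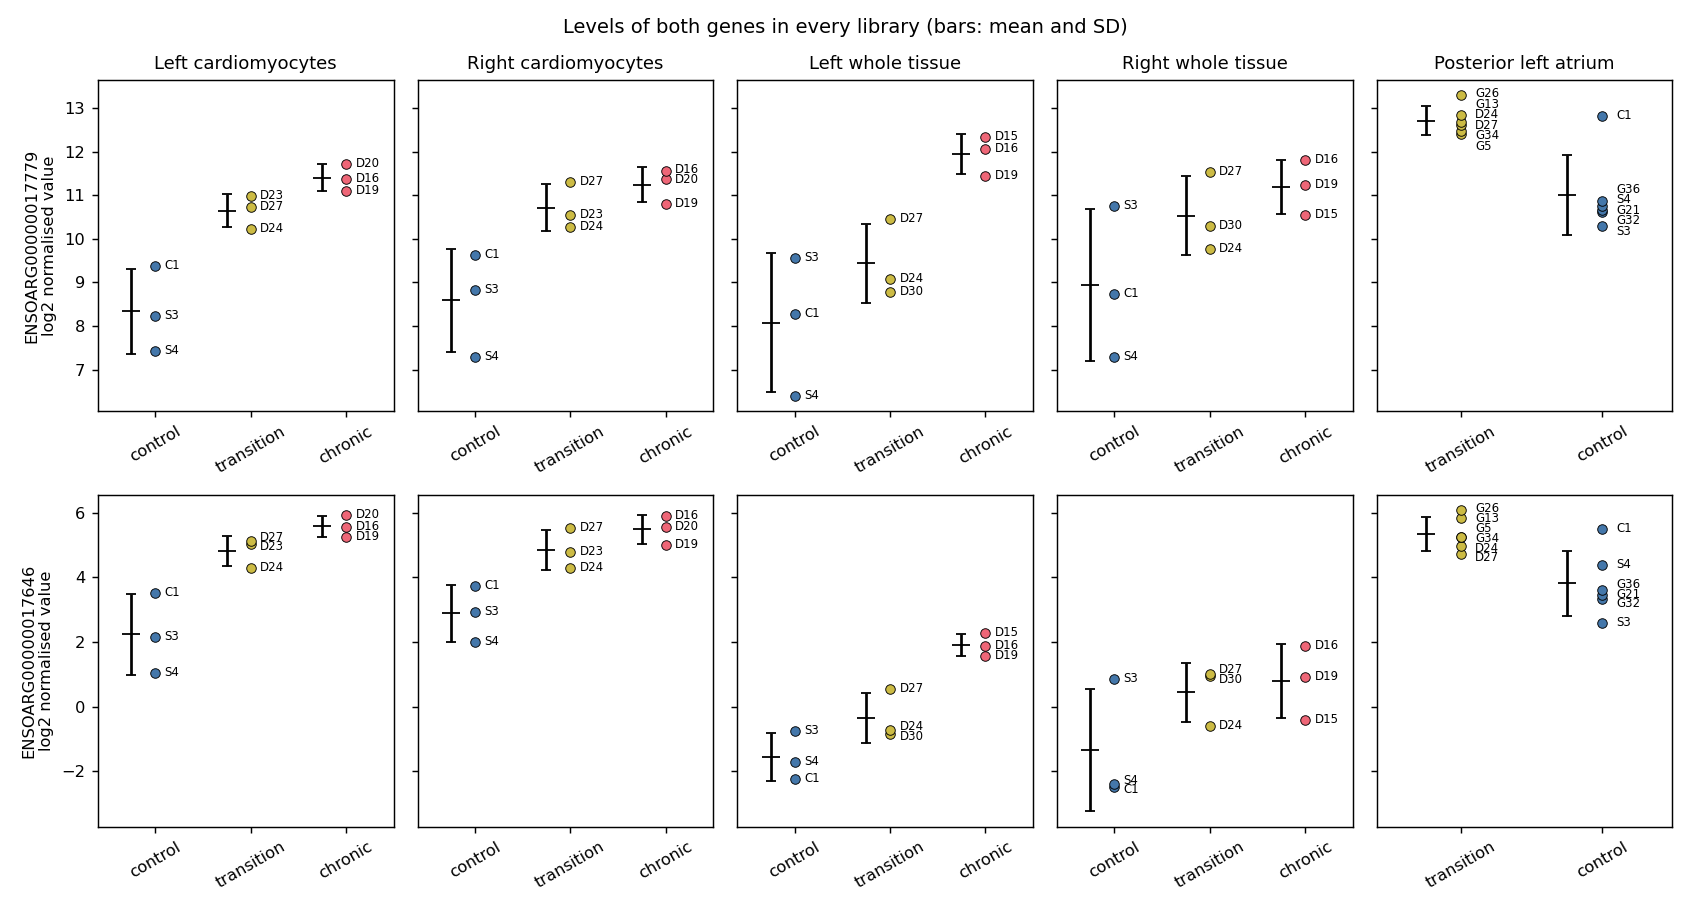
Log2 normalised value of ENSOARG00000017779 (top row) and ENSOARG00000017646 (bottom row) in every library, by material, region and state, with each point labelled by its sheep and with the group mean and SD as a bar. In cardiomyocytes of either side every transition and chronic sheep lies above every control sheep, while in the posterior left atrium control sheep C1, at 12.83 and 5.51, lies among the transition sheep.

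Cardiomyocytes of the right appendage gave the same order of states. The genes were chosen by their increase on the left, but the right libraries were not independent of that choice. They came from the same 9 sheep, and they entered the shared estimate of spread and the mean level that the choice used. ENSOARG00000017779 had 9.64 in C1, 8.83 in S3 and 7.30 in S4 among control sheep, 10.55 in D23, 10.28 in D24 and 11.31 in D27 among transition sheep, and 11.57 in D16, 10.79 in D19 and 11.37 in D20 among chronic sheep. Both later groups lay above all controls, and transition and chronic sheep overlapped, with transition sheep D27 above chronic sheep D19. The gene rose by 2.13 ± 0.44 in transition sheep, 4.36-fold (SE; adjusted p = 0.0389, limma with Benjamini-Hochberg adjustment over the table), and by 2.66 ± 0.44 in chronic sheep, 6.30-fold (adjusted p = 0.00407, limma). In these comparisons limma called 0.391% of the 12279 genes higher in transition sheep and 1.79% higher in chronic sheep. The transition call was lost, with adjusted p-values of 0.0717 to 0.231, when D24, D27, S3 or S4 was left out, with changes of 2.34, 1.83, 2.25 and 1.48. The chronic call held with each sheep left out, with 2.01 without S4 as the lowest change. The transition call was also lost when the pairing of left and right samples by sheep was dropped (adjusted p = 0.0675, limma).

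ENSOARG00000017646 followed in the same right cardiomyocyte libraries, with 3.74 in C1, 2.93 in S3 and 1.99 in S4 among control sheep, 4.77 in D23, 4.28 in D24 and 5.51 in D27 among transition sheep, and 5.89 in D16, 5.01 in D19 and 5.56 in D20 among chronic sheep. Here too each transition and chronic sheep was above each control sheep, and the 2 later states overlapped. In transition against control sheep the difference was 1.97 ± 0.45, or 3.92-fold, and missed the threshold (SE; adjusted p = 0.0508, limma). Without C1, the highest control sheep, it was 2.40 and passed (adjusted p = 0.0123, limma). With any other control or transition sheep left out it was not called, with 1.52 without S4 and 1.64 without D27 (adjusted p = 0.129 and 0.296, limma). The gene rose by 2.60 ± 0.45 in chronic sheep, 6.06-fold (SE; adjusted p = 0.00497, limma). Every sheep of the later state was higher than every control sheep for 8.23% of all genes in transition and 10.7% in chronic sheep, so the lack of overlap alone is common in groups of 3.

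No difference between chronic and transition sheep was detected for either gene in right cardiomyocytes. The difference was 0.63 for ENSOARG00000017646, with a 95% interval of −0.32 to 1.58, and 0.53 for ENSOARG00000017779, with an interval of −0.40 to 1.45 (adjusted p = 0.662 and 0.707, limma). Both intervals include 0. Of all 12279 genes, 0.00814% were called in this comparison.

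In cardiomyocytes ENSOARG00000017646 was covered by 17 to 450 reads per library and ENSOARG00000017779 by 1166 to 24537 reads, which were 0.0159% to 0.332% of all listed reads. The counting error of the lowest ENSOARG00000017646 library was 24.3% of its value, well under the differences between states, and that of ENSOARG00000017779 was at most 2.93%. Counting error covers only the sampling of reads, not the spread between sheep.

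Whole tissue of the left appendage showed a chronic rise of both genes. It is no independent repeat, since most of its sheep also gave the left cardiomyocytes that chose the genes. These were control sheep C1, S3 and S4, transition sheep D24 and D27, and chronic sheep D16 and D19. ENSOARG00000017779 had 9.56 in S3, 6.39 in S4 and 8.28 in C1 among control sheep, 9.07 in D24, 10.47 in D27 and 8.78 in D30 among transition sheep, and 12.06 in D16, 12.33 in D15 and 11.44 in D19 among chronic sheep. All chronic sheep were above all others, whereas the transition sheep D24 and D30 were below control sheep S3. The gene was higher in chronic than in control sheep by 3.87 ± 0.72, or 14.6-fold (SE; adjusted p = 0.00495, limma), in a comparison in which 4.43% of 12333 genes were called higher. The call held with each sheep left out, and the change was 3.03 without control sheep S4 and 4.61 without control sheep S3. In transition against control sheep it differed by 1.36 ± 0.72 (adjusted p = 0.40, limma), where 1.06% of genes were called higher, with a 95% interval of −0.16 to 2.88; without S4 the difference was 0.52, and without S3 it was 2.11.

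ENSOARG00000017646 was near the lower limit of measurement in the same tissue. It was read 7, 2 and 1 times in control sheep S3, S4 and C1, 5, 11 and 4 times in transition sheep D24, D27 and D30, and 29, 32 and 25 times in chronic sheep D16, D15 and D19. The log2 values were −0.75, −1.71 and −2.23 in those control sheep, −0.72, 0.55 and −0.85 in the transition sheep, and 1.88, 2.27 and 1.57 in the chronic sheep. Chronic sheep did not overlap with the other states, and every chronic sheep was above every control sheep for 14.3% of all listed genes, or 14.4% of those past the filter.

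The mean of ENSOARG00000017646 over the whole tissue table was just below 0, at which genes were otherwise left out, so its tests here come from a fit of all 13187 listed genes. It rose by 3.47 ± 0.81 in chronic against control sheep, 11.05-fold on the deposited scale (SE; adjusted p = 0.0162, limma), where 4.28% of listed genes were called higher. The call was lost without chronic sheep D19, with a change of 3.63 (adjusted p = 0.0523, limma), and without control sheep C1, with a change of 3.13 (adjusted p = 0.0640, limma). With 10 reads added before the log in place of 0.5 the change was 1.77 and was still called. Summed over the sheep of a state, 86 reads in chronic against 10 in control sheep gave a ratio of 10.2 per scaled read (exact 95% interval 5.30 to 22.1, counting error only), and 20 reads in transition against 10 in control sheep gave 2.23 (0.995 to 5.33). The fitted transition difference was 1.22 ± 0.81 (SE; adjusted p = 0.521, limma), and 0.44 with 10 added reads.

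**Figure D2:**
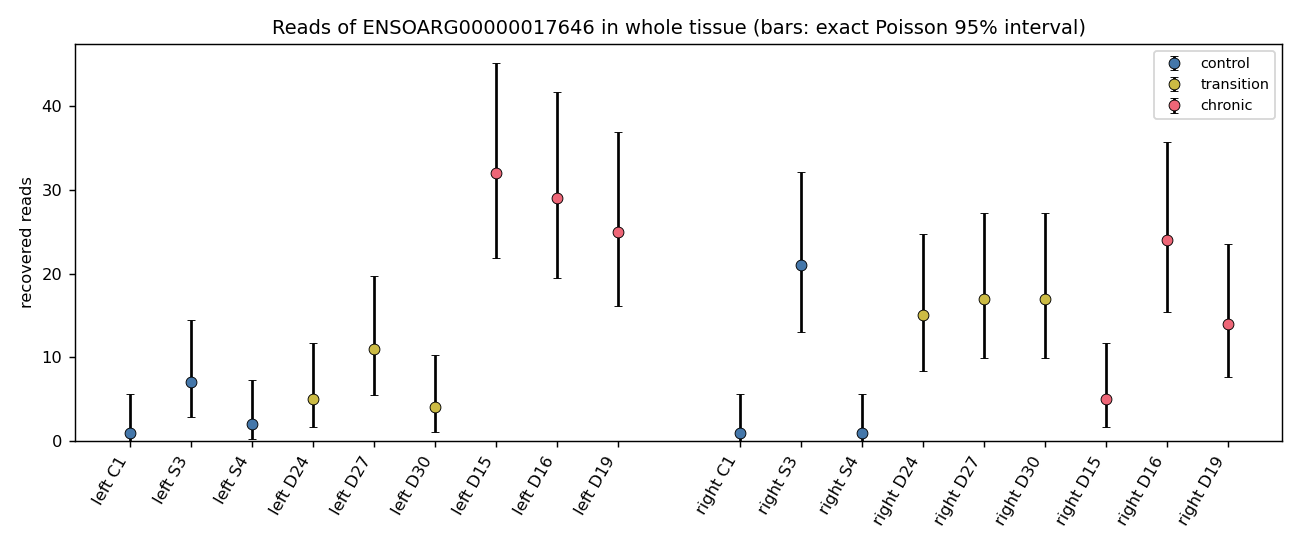
Reads of ENSOARG00000017646 recovered from the deposited values in each whole tissue library, by appendage, sheep and state, with exact Poisson 95% intervals that cover counting error only. The 3 left chronic sheep had 25 to 32 reads, and the left control sheep 1 to 7.

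Left chronic minus left transition sheep in whole tissue gave 2.51 ± 0.72 for ENSOARG00000017779 and 2.24 ± 0.81 for ENSOARG00000017646 (SE), with no overlap between the groups for either gene. Every chronic sheep was above every transition sheep for 9.28% of the genes past the filter and 9.05% of all listed genes. The differences did not pass the adjustment over the table (adjusted p = 0.200 and 0.319, limma). Of the 12333 genes past the filter, 1352 had an unadjusted p under 0.05 in that comparison and limma called 0, as did voom on the recovered reads.

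Right appendage tissue had the same order of group means, and no change passed the test. ENSOARG00000017779 had 10.76 in S3, 7.29 in S4 and 8.74 in C1 among control sheep, 9.76 in D24, 11.53 in D27 and 10.30 in D30 among transition sheep, and 11.80 in D16, 10.55 in D15 and 11.23 in D19 among chronic sheep. Control sheep S3 was above transition sheep D24 and D30 and above chronic sheep D15, so all 3 states overlapped. The differences were 1.60 ± 0.72 in transition against control sheep (SE; adjusted p = 0.305, limma) and 2.26 ± 0.72 in chronic against control sheep (adjusted p = 0.139, limma). Here 0.47% of genes were called higher in transition and 0.949% in chronic sheep. Without S3, the highest control sheep, the chronic difference was 3.18 and passed the threshold (adjusted p = 0.0243, limma). With any other control or chronic sheep left out it was not called, and the lowest change was 1.44.

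In the same right tissue ENSOARG00000017646 was read 21, 1 and 1 times in control sheep S3, S4 and C1, 15, 17 and 17 times in transition sheep D24, D27 and D30, and 24, 5 and 14 times in chronic sheep D16, D15 and D19. S3 stood above the other controls for this gene as well. The differences were 1.79 ± 0.81 in transition and 2.14 ± 0.81 in chronic against control sheep (SE; adjusted p = 0.315 and 0.217, limma). Without adjustment over the table, their 95% intervals were 0.09 to 3.50 and 0.43 to 3.84. Of all listed genes, 0.417% were called higher in transition and 0.895% in chronic sheep. Summed reads were 43 in chronic and 23 in control sheep, a ratio of 2.44 per scaled read (exact 95% interval 1.44 to 4.24, counting error only), and 21 of those 23 control reads came from S3. The 49 reads in transition against 23 in control sheep gave a ratio of 1.45 (0.869 to 2.50). With 10 added reads the fitted differences were 0.35 in transition and 0.93 in chronic against control sheep, also not called.

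Chronic and transition sheep of the right appendage tissue differed by 0.66 ± 0.72 in ENSOARG00000017779 and by 0.35 ± 0.81 in ENSOARG00000017646 (SE; adjusted p = 0.957 and 0.986, limma). Neither group stood clear of the other. Limma and voom each called 0 of the 12333 genes past the filter, and in limma 747 of them had an unadjusted p below 0.05.

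The posterior left atrium tested both genes partly in other animals. ENSOARG00000017779 had 12.40 in G5, 12.84 in G13, 12.47 in G34, 13.31 in G26, 12.67 in D24 and 12.61 in D27 among transition sheep, against 10.67 in G21, 10.62 in G32, 10.88 in G36, 10.30 in S3, 10.75 in S4 and 12.83 in C1 among control sheep. The transition sheep lay within 1 log2 unit of each other, and of the controls all but C1 were below them. The gene was higher in transition sheep by 1.75 ± 0.34, or 3.36-fold (SE; adjusted p = 0.00370, limma), in a model with the set of sheep as a term. ENSOARG00000017646 had 5.24, 5.83, 5.24, 6.08, 4.98 and 4.71 in the same transition sheep, against 3.46, 3.34, 3.60, 2.60, 4.39 and 5.51 in the same control sheep. It rose by 1.53 ± 0.41, or 2.90-fold (SE; adjusted p = 0.0197, limma), and C1 was above 4 of the 6 transition sheep, as it was for ENSOARG00000017779. Of 12035 genes, 8.84% were called higher.

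In the 7 sheep with G numbers, which had no part in the choice of the genes, both rises were present without overlap. ENSOARG00000017646 averaged 5.60 ± 0.43 in 4 transition sheep and 3.46 ± 0.13 in 3 control sheep (SD), a change of 2.13 ± 0.22, or 4.39-fold (SE; adjusted p = 0.000858, limma). ENSOARG00000017779 averaged 12.75 ± 0.42 in transition and 10.72 ± 0.14 in control sheep (SD), a change of 2.03 ± 0.22, or 4.08-fold (SE; adjusted p = 0.000997, limma). Within these sheep 3.57% of 12032 genes were called higher, and for 10.2% every transition sheep was above every control sheep. Leaving out any 1 of these 7 sheep kept both calls, with changes of 1.97 to 2.25 for ENSOARG00000017646 and 1.85 to 2.15 for ENSOARG00000017779.

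The sheep with S, C and D names, 2 transition and 3 control, include C1. ENSOARG00000017779 averaged 12.64 ± 0.046 in transition and 11.29 ± 1.35 in control sheep (SD), and ENSOARG00000017646 averaged 4.84 ± 0.19 in transition and 4.17 ± 1.47 in control sheep (SD). Fitted alone, these sheep gave 1.35 and 0.68, and neither passed the test (adjusted p = 0.288 and 0.624, limma). Without C1 the differences over all remaining sheep were 2.06 for ENSOARG00000017779 and 1.84 for ENSOARG00000017646 (adjusted p = 7.28e-06 and 0.00102, limma). The call of ENSOARG00000017646 over all sheep was lost without control sheep G32, with a change of 1.41 (adjusted p = 0.0558, limma).

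**Figure D3:**
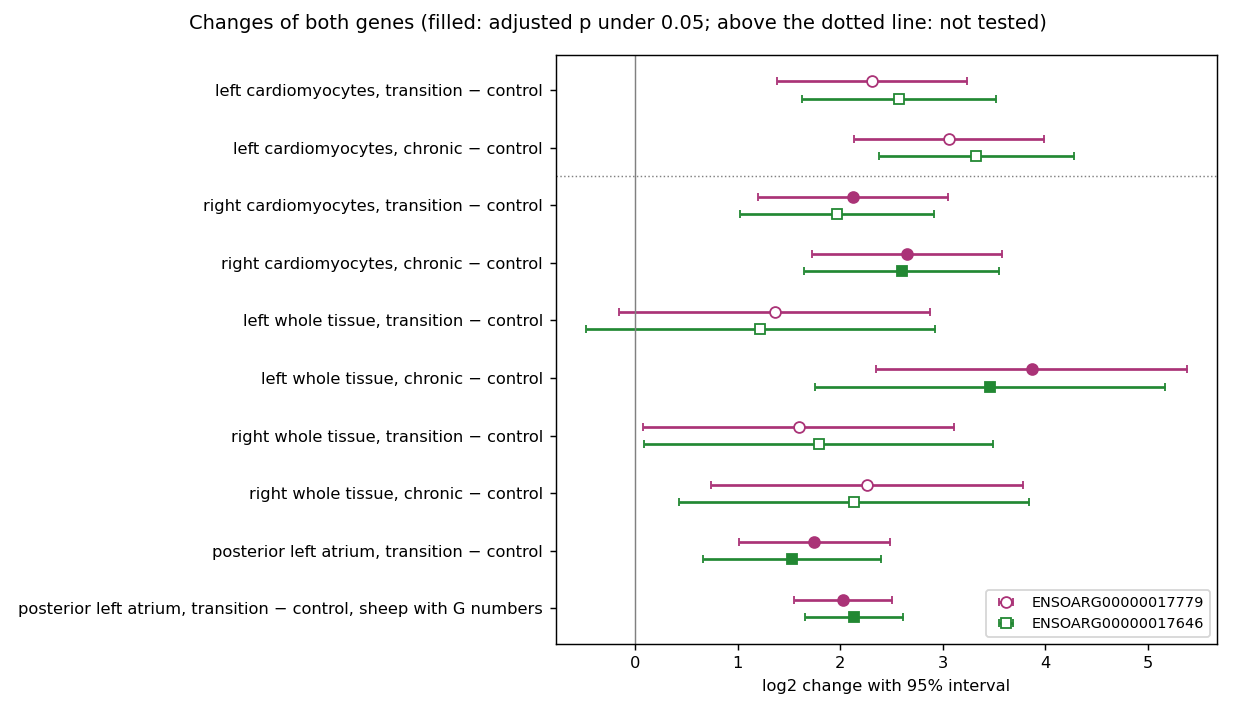
Log2 change of ENSOARG00000017779 (circles) and ENSOARG00000017646 (squares) in each comparison, with 95% intervals from limma; filled symbols passed an adjusted p of 0.05, and the comparisons above the dotted line chose the genes and were not tested. All estimates lie above 0, from 1.22 in left transition tissue to 3.87 in left chronic tissue, and the left transition tissue intervals include 0.

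Across libraries the genes moved together. In cardiomyocytes the log2 value of ENSOARG00000017779 minus that of ENSOARG00000017646 was 5.85 ± 0.21 over 18 libraries (SD), ranging from 5.31 to 6.39, whereas each gene alone had an SD of 1.40 and 1.45. Gene lengths were not used here, so the size of this difference is no comparison of transcript levels, and only its steadiness is described. Pearson's r between the genes was 0.990 over these libraries and 0.961 after the group means were taken away, and Spearman's rho was 0.990. These points share sheep, library preparation and table, since each of the 9 sheep gave 2 libraries, and the values are a description. The left libraries among them chose both genes for their increase, so part of the likeness over all libraries was set by that choice.

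The relation was looser in the other tables. In appendage tissue, where ENSOARG00000017646 had 1 to 32 reads per library, the difference between the genes was 10.03 ± 0.67 over 18 libraries (SD), from 8.09 to 11.24, with r = 0.916 between the genes overall and 0.783 within groups. In the posterior left atrium, where the depth is unknown, the difference was 7.28 ± 0.39 over 12 libraries (SD), from 6.36 to 7.90, with r = 0.938 overall and 0.869 within groups. Sheep C1 kept to the relation there, since both its values were high. The part of read depth in these differences between tables was not tested.

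**Figure D4:**
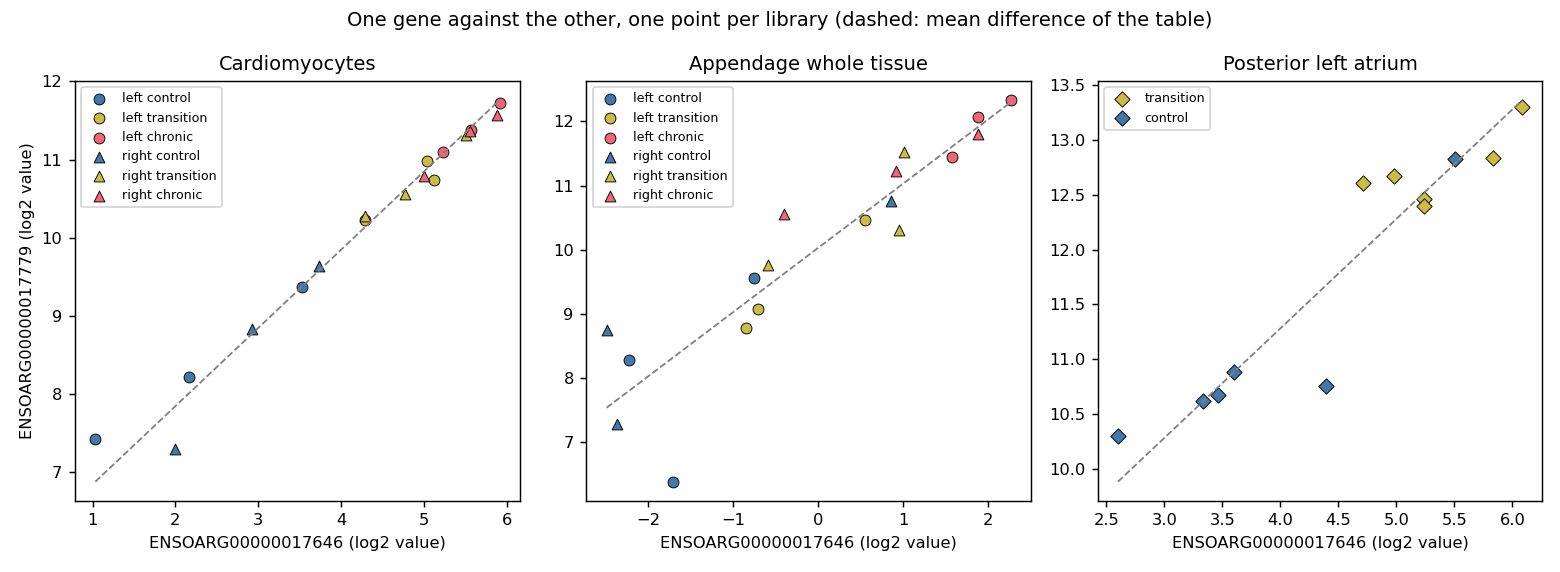
Log2 value of ENSOARG00000017779 against that of ENSOARG00000017646, one point per library, coloured by state, with circles for left, triangles for right and diamonds for posterior left atrium, and a dashed line at the table's mean difference between the genes. Within a library, ENSOARG00000017779 minus ENSOARG00000017646 is 5.31 to 6.39 in cardiomyocytes and 8.09 to 11.24 in appendage tissue.

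Left and right cardiomyocytes of a sheep had similar levels of both genes. Left minus right ranged from −0.61 to 0.42 for ENSOARG00000017779 and from −0.96 to 0.36 for ENSOARG00000017646 over 9 sheep, and 4 of the 9 sheep were higher on the left for each gene. Left values tracked right values with r = 0.966 for ENSOARG00000017779 and 0.979 for ENSOARG00000017646, as a description over 9 sheep that span all 3 states. In this table the mean left minus right difference was −0.054 ± 0.18 and −0.20 ± 0.19 (SE), given without a test because the left libraries chose the genes.

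In tissue the sides were less alike. For ENSOARG00000017779 the 3 chronic sheep were higher on the left, by 1.78 in D15, 0.26 in D16 and 0.21 in D19, and all 6 transition and control sheep were lower on the left, by 0.47 to 1.53 on the log2 scale. ENSOARG00000017646 was higher on the left in 4 of 9 sheep, among them D15 by 2.67. Averaged over the states, left minus right was −0.40 ± 0.35 for ENSOARG00000017779 and 0.030 ± 0.39 for ENSOARG00000017646 (SE; adjusted p = 0.541 and 0.979, limma), where 8.59% of genes past the filter and 8.75% of all listed genes were called.

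Whether the chronic change differed between the appendages was tested as an interaction in whole tissue. Left minus right of the chronic minus control change was 1.61 ± 0.85 for ENSOARG00000017779 and 1.33 ± 0.96 for ENSOARG00000017646 (SE), and neither passed the test (adjusted p = 0.775 and 0.874, limma). In this contrast 0% of genes were called by limma or by voom, and in limma 815 of the 12333 genes past the filter had an unadjusted p below 0.05. For the transition minus control change it was −0.24 ± 0.85 and −0.57 ± 0.96 (SE; adjusted p = 0.976 and 0.937, limma), where 0.0243% of genes past the filter and 0.0227% of all listed genes were called. A chronic rise called in left tissue and not in right tissue is thus no shown difference between the sides.

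**Figure D5:**
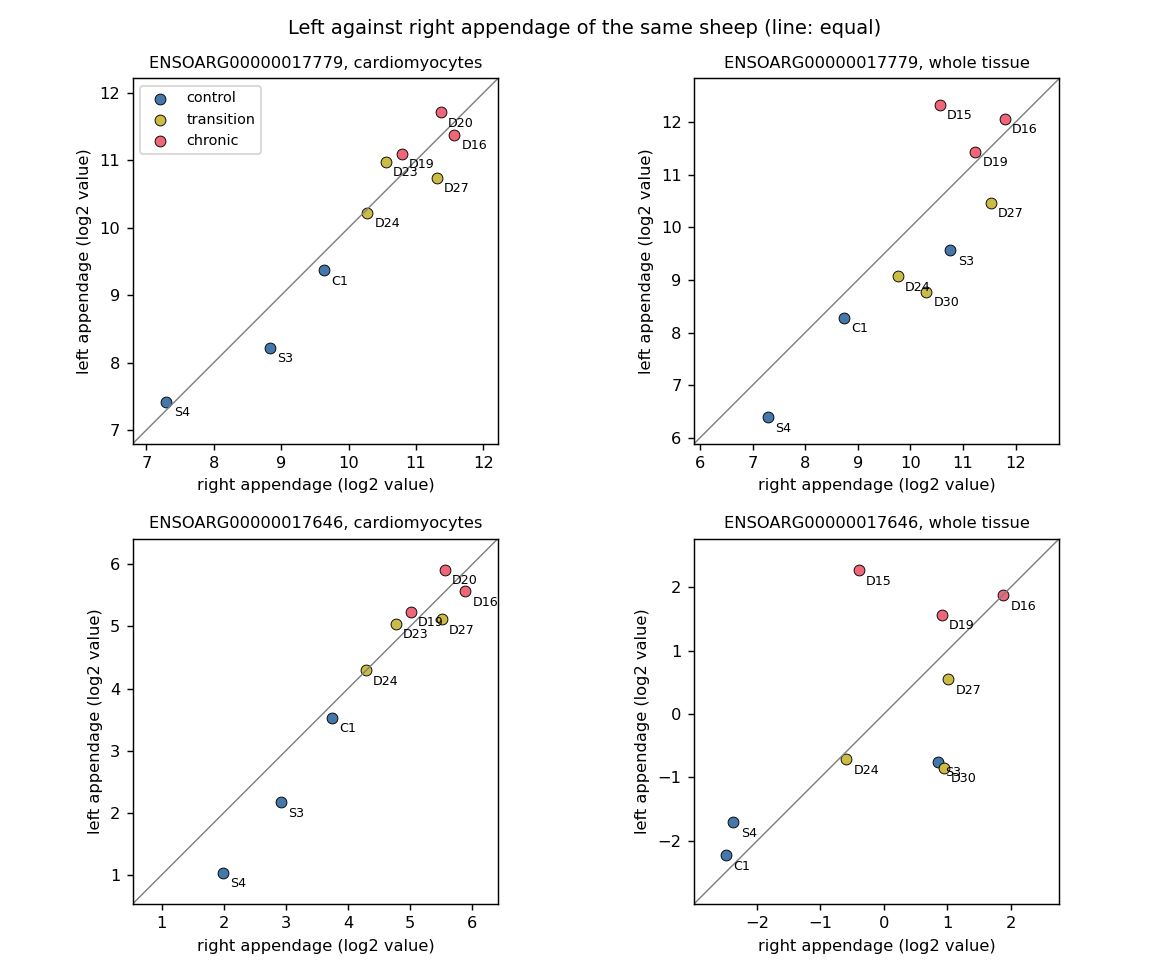
Left against right appendage value (log2) of ENSOARG00000017779 (top) and ENSOARG00000017646 (bottom) in cardiomyocytes and whole tissue, one point per sheep, coloured by state, with a line of equal values. Cardiomyocyte points lie close to the line, and in whole tissue ENSOARG00000017779 lies above it in the 3 chronic sheep and below it in the other 6.

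The group means fell into 1 order for both genes in both appendage tables. From high to low it ran left chronic, right chronic, right transition, left transition, right control and left control. The difference between left chronic and left control cardiomyocytes helped choose the genes, and 7 sheep gave both materials. The likeness of the orders is therefore a description. Of the steps between neighbours in this order, only that from left transition to right control in cardiomyocytes was free of overlap between sheep, by 1.93 for ENSOARG00000017646 and 2.06 for ENSOARG00000017779 between the means; every other pair of neighbours overlapped. In cardiomyocytes the group means ran from 8.34 to 11.40 for ENSOARG00000017779 and from 2.24 to 5.57 for ENSOARG00000017646, and in tissue from 8.08 ± 1.60 to 11.95 ± 0.46 and from −1.56 ± 0.75 to 1.90 ± 0.35 (SD, n = 3).

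Isolated cardiomyocytes and appendage tissue set the genes apart. In the 14 pairs of cardiomyocyte and tissue libraries from the same sheep and side, cardiomyocytes minus tissue averaged 4.18 for ENSOARG00000017646, with a range of 2.07 to 6.23, and −0.015 for ENSOARG00000017779, with a range of −1.93 to 1.15. The tables were normalised separately, so these differences carry no test. For ENSOARG00000017646 they also rest on few tissue reads, 1 to 32 per library. Its largest differences, 6.23 on the right and 5.75 on the left in C1, each rest on 1 tissue read. Over the 12667 genes listed in both tables the median difference was −0.36, and 29 genes had a larger one than ENSOARG00000017646. ENSOARG00000017646 was thus higher in cardiomyocytes than in appendage tissue in all 14 pairs, and ENSOARG00000017779 in 7 of them. This does not extend to whole tissue of the posterior left atrium. There the mean of ENSOARG00000017646 was 4.58, against 4.31 in cardiomyocytes and −0.013 in appendage tissue. These means run over unlike sheep and states. The posterior left atrium had no chronic sheep, and 7 of its 12 sheep gave no appendage samples.

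The posterior left atrium stood above left appendage tissue in the 5 sheep with both, again across separately normalised tables and without a test. Posterior left atrium minus left appendage tissue averaged 5.41 for ENSOARG00000017646, with 5.70 in D24 and 4.16 in D27 among transition sheep and 3.35 in S3, 6.10 in S4 and 7.73 in C1 among control sheep. For ENSOARG00000017779 it averaged 3.08, with 3.60 in D24 and 2.14 in D27, and 0.74 in S3, 4.37 in S4 and 4.55 in C1. The largest differences of ENSOARG00000017646, in C1 and S4, rest on 1 and 2 reads in left appendage tissue. Of the 11877 genes that both list, 1 had a larger mean difference than ENSOARG00000017646 and 8 a larger one than ENSOARG00000017779, with a median over all genes of −0.15. The match of sheep here rests on the sheep field of the labels, and by column name S3_PLA the high control given as C1 would carry the number of S3. Unlike the appendage values, most posterior left atrium values did not fall on whole reads, for a reason not given in the sources used here, and its part in these differences was not tested.

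Control sheep, taken by the sheep field of the labels, ranked differently in each material. In cardiomyocytes C1 was highest and S4 lowest for both genes on both sides. In tissue S3 was the highest control for both genes on both sides, with ENSOARG00000017779 at 9.56 on the left and 10.76 on the right. In the posterior left atrium C1 was highest for both genes, S4 lay above S3, and S3 was the lowest of the 6 controls; these 3 columns are named S3_PLA, S2_PLA and S1_PLA, so the ranking across materials depends on which label is right.

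By likeness of pattern, ENSOARG00000017779 was the gene most like ENSOARG00000017646 among 11796 candidates, with r = 0.990 over 18 cardiomyocyte libraries and 0.916 over 18 tissue libraries. ENSOARG00000014216 came next, with 0.909 and 0.839. For ENSOARG00000017779, where ENSOARG00000017646 was no candidate because of its low tissue mean, the most alike genes were ENSOARG00000016466, with 0.881 and 0.875, and ENSOARG00000014216, with 0.906 and 0.826. These genes were picked for their likeness, and the correlations are a description. The left cardiomyocyte libraries also chose ENSOARG00000017646 and ENSOARG00000017779, so their likeness to each other was partly set by that choice.

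The similar patterns came with different sizes of change. In left cardiomyocytes ENSOARG00000014216 averaged 1.24 in control, 4.23 in transition and 4.23 in chronic sheep, and in the posterior left atrium 4.80 in transition and 2.04 in control sheep. ENSOARG00000016466 moved little, with 7.66 in control, 7.92 in transition and 8.01 in chronic left cardiomyocytes, and 8.55 in transition and 8.14 in control posterior left atrium. ENSOARG00000017646 and ENSOARG00000017779 themselves ranked 11th and 15th by increase among all 12279 genes in left chronic cardiomyocytes. That contrast helped choose them, so a high rank there was set in advance. In right chronic cardiomyocytes they ranked 24th and 23rd, and that rank was not independent of the choice either, since the same 9 sheep gave both sides.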

How the data were processed

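Per the labels, libraries were made with the NEBNext Ultra kit. The tools limma, RSEM, cutadapt and bcl2fastq are named, without versions or roles, in the submitters' processing notes. For the aligner, genome build, annotation and use of strand in counting, nothing is given in the sources used here. The authors deposited 3 tables of log2 values, with 1 column per sheep, region and material, so the technical replicates in the labels had been merged; 0 columns could not be mapped to a sample group. In the appendage tables all 238716 cardiomyocyte and 237366 tissue values equalled the log2 of whole reads plus 0.5 over a scaled library size, within 0.05 reads, so reads were recovered; the authors' scaling factors were 0.828 to 1.14. In the posterior left atrium 9.95% of all values and 12.3% of low values came within that tolerance. Some values of any form do so by accident, so whole reads were not recognised there and no reads were used.

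The 2 genes, comparisons and alternatives were chosen with earlier results of these data known. Limma 3.58.1 in R 4.3.3 was fitted with a mean-variance trend to each whole table, on genes with a mean log2 value of at least 0, and p-values were adjusted by Benjamini-Hochberg, with a threshold of 0.05; ENSOARG00000017646 missed this filter in tissue and was tested there over all listed genes. Appendage models held 6 group means and the sheep as a random effect, since left and right samples share a sheep per the labels (consensus correlation 0.470 in cardiomyocytes and 0.294 in tissue). Posterior left atrium models held state and set of sheep. Contrasts of left cardiomyocytes were not tested, as they chose the genes. The fits were tested on simulated data. Besides the 2 genes, those most alike were named by the mean of 2 Pearson correlations. Within a group of appendage libraries, reads of any 2 sheep differed by a chi-square of 10.9 or more for each degree of freedom, so no appendage library was a copy of another of its group. Posterior left atrium libraries, for which no reads were recovered, were not checked in this way. Reads shared with near-identical or overlapping genes cannot be told apart here. Alternatives were other scalings, filters, pseudocounts, weights, voom, no sheep term, each side alone and each sheep left out.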

Additional observations from a re-analysis of the deposited data

Results flagged for a closer look

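In the posterior left atrium the ENSOARG00000017779 value of control sheep C1, 12.83, stood apart from the other 5 controls, which lay between 10.30 and 10.88. Its distance to the nearest of them was 0.772 of the whole range of the group, above Dixon's 95% critical value for 6 samples. Chance passes this limit in about 1 group in 20. For ENSOARG00000017646 the same sheep, at 5.51, was the highest control too, and its distance of 0.385 of the range stayed under the limit. The library is C1 by the sheep field of the labels, while its column and title read S3_PLA. The condition field calls it control and the other 5 sham, while the titles of G21, G32 and G36 read control. The C1 library carries the technical replicate label L6, which no other posterior left atrium library has. S3 and D24 have L3, S4 and D27 have L5, and the sheep with G numbers have L7 and L8. The part of this label in the C1 value was not tested.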

How the results depend on the processing

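Over the 28 tested results of the 2 genes, 377 values under alternative settings kept their direction and their side of the threshold, 11 lost the call, 7 gained it and 10 changed sign; the cause was not tested. No tested change against control turned its sign. For ENSOARG00000017779 in right cardiomyocytes, transition against control, the call was lost with no replicate block for the sheep (2.13, adjusted p = 0.0675, limma) and with each appendage fitted alone (2.13, adjusted p = 0.174), and leaving out a sheep gave 1.48 to 2.65; dropping the block changed no other call. ENSOARG00000017646 passed there with quantile normalisation (1.996), 10 added reads (1.79) and sample quality weights (1.76), with 1.52 to 2.40 over sheep left out. Sample quality weights also brought right tissue, chronic against control, past the threshold for ENSOARG00000017646 (2.86) and ENSOARG00000017779 (2.93), where leaving out a sheep gave 1.44 to 3.18 for ENSOARG00000017779. In left tissue, chronic against control, ENSOARG00000017646 ranged from 3.13 to 3.87 over sheep left out. In the posterior left atrium the S, C and D sheep alone gave 0.68 for ENSOARG00000017646 and 1.35 for ENSOARG00000017779, and leaving out a sheep gave 1.31 to 1.84 and 1.59 to 2.06. The results that changed sign were all far from the threshold: for ENSOARG00000017646, left minus right in tissue was −0.090 with library totals and −0.23 to 0.26 over sheep left out, right tissue chronic minus transition was −0.20 to 0.95 over sheep left out, and the difference between sides of the transition change was 0.089 with 10 added reads; for ENSOARG00000017779 that last difference was 0.040 with sample quality weights. Counts of genes called moved more: 924 in left tissue, chronic against control, became 440 to 1377, and 80 in right cardiomyocytes, transition against control, became 9 to 409. Depth limits ENSOARG00000017646 in tissue, where 1 to 32 reads stand behind each value.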
